A study of Mus musculus with 52 samples.

Results

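Transcripts of the antibody isotypes were measured by bulk RNA-seq in 32 subcutaneous KPC tumors, 8 in each of 4 treatment groups. The 10 genes described here are the 8 immunoglobulin heavy chain constant genes Ighm, Ighd, Ighg3, Ighg1, Ighg2b, Ighg2c, Ighe and Igha, the kappa light chain constant gene Igkc and the joining chain gene Jchain. They were chosen by gene name from the 27525 genes of the deposited table, and all 10 were found in it. KPC cells, which the labels call KxPxCx, are mouse pancreatic adenocarcinoma cells from mice in which Pdx1-Cre, a driver active in the pancreatic lineage, switches on mutant alleles that include Trp53. They were grown under the skin of the flank of male C57BL/6NHsd mice, which are immunocompetent and of the same strain background. Untreated tumors, labelled Control, received neither agent. ADU-S100 tumors received an injection into the tumor of ADU-S100, a cGAMP analog that activates STING, a sensor of cytosolic DNA signaling. Anti-LTβR tumors came from mice given repeated intraperitoneal doses of an agonistic antibody to the lymphotoxin-β receptor, and combination tumors from mice given both agents. All tumors were whole pieces of tissue, collected individually at the same time after treatment began, and the labels number them within each group without naming mice. The p-values therefore measure the spread between these tumors. The study's descriptions differ on whether all tumors came from the same experiment, and the labels give no batch, so none could be fitted and its part in the results was not tested.

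An antibody is built of heavy and light chains, and the constant part of its heavy chain sets its class. B cells first use Ighm and Ighd for IgM and IgD. In class switching, the cell joins its antigen-binding segment to a constant gene further downstream, which gives IgG, IgE or IgA. Plasma cells then fill themselves with transcripts of the secreted form of the chosen class. The J chain links IgM and IgA units into larger polymers that epithelial cells can carry into mucosal secretions. C57BL/6 mice carry Ighg2c in the place of the Ighg2a of other strains.

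The heavy chain genes lie in the order of their possible use along the minus strand of chromosome 12 (GRCm38, GENCODE annotation). They run from Ighm (ENSMUSG00000076617, chr12:113418558-113422730) and Ighd (ENSMUSG00000104213, chr12:113406604-113416324) through Ighg3 (ENSMUSG00000076615, chr12:113356224-113361232), Ighg1 (ENSMUSG00000076614, chr12:113325240-113330523), Ighg2b (ENSMUSG00000076613, chr12:113302965-113307933) and Ighg2c (ENSMUSG00000076612, chr12:113285325-113288932). Downstream of these lie Ighe (ENSMUSG00000087642, chr12:113269260-113273248) and Igha (ENSMUSG00000095079, chr12:113254830-113260236). Igkc (ENSMUSG00000076609) is on the plus strand at chr6:70726435-70726966, and Jchain (ENSMUSG00000067149) is on the minus strand at chr5:88519809-88527891.

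Tail and hinge sequences show what distinguishes the classes. The first set is the tail of the secreted IgM and IgA heavy chains, the last 54 coding bases before the stop codon, because the cysteine near its end is where chains bind to each other and to the J chain. Capitals mark in-frame cysteine codons, and each tail holds 1. They lie at chr12:113420870-113420923 and chr12:113258771-113258824 on the minus strand of GRCm38 and are printed 5′ to 3′.
Ighm tail: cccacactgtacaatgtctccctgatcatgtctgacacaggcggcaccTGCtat
Igha tail: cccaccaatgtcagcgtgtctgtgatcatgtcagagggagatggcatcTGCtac
Over their whole secreted coding sequences Ighm and Igha are 47.9% identical, and their longest shared stretch is 12 bases.

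The second set is the hinge exon of each IgG gene, the flexible joint whose cysteines bind the heavy chains to each other, shown because its cysteine codons differ between the IgG subclasses. Capitals again mark in-frame cysteine codons. The exons lie at chr12:113360529-113360576, chr12:113329844-113329882, chr12:113307261-113307326 and chr12:113288263-113288325, in the order printed.
Ighg3 hinge: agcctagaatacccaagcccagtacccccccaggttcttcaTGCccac
Ighg1 hinge: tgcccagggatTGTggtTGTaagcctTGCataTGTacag
Ighg2b hinge: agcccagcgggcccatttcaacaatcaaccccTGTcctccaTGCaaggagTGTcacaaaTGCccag
Ighg2c hinge: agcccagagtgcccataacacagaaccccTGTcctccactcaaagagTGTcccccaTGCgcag
The hinge holds 1 cysteine codon in Ighg3, 3 in Ighg2c and 4 in each of Ighg1 and Ighg2b. Ighg2b and Ighg2c were the closest pair, 85.8% identical over the secreted coding sequence and 77.3% in the hinge, with a shared stretch of 78 bases. The other IgG pairs were 74.2% to 76.0% identical and shared at most 41 bases. Reads from the shared stretches could be credited to either gene, so the split between Ighg2b and Ighg2c is less certain than their sum.

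The unit throughout is the normalized count, the reads the authors estimated for a gene divided by a size factor of the library. The libraries summed to 15443912 to 16759706 normalized counts, and the reads recovered from the larger deposited table numbered 12762453 to 15591987 per library. Together the 10 genes took 0.0523% to 0.402% of a library in untreated tumors (median 0.151%) and 0.0371% to 0.187% in ADU-S100 tumors (median 0.126%). They took 0.118% to 1.20% in anti-LTβR tumors (median 0.434%) and 0.282% to 1.54% in combination tumors (median 0.665%). The spread within a group was wide, so that the lowest combination tumor lay under the highest untreated tumor. In bulk tissue, fewer antibody-secreting cells and less RNA per cell cannot be told apart.

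Igkc had the highest level of the 10 genes in every tumor when counts were divided by exonic length, the scale used here to compare genes. Its median was 60218 normalized counts per kilobase in combination tumors, 43160 after the antibody, 14342 without treatment and 12781 after ADU-S100. Igha came second by median in 3 groups, at 2372 per kilobase in untreated, 1916 in ADU-S100 and 10208 in combination tumors, and Ighm came second in anti-LTβR tumors at 5962. The order of Igha and Ighm in untreated tumors was not clear, since Igha was above Ighm in 2 of 8 tumors. In combination tumors Igha was above the next gene, Ighg2c (median 6408 per kilobase), in 8 of 8. Ighg2c and Ighm were not separated there either (Ighg2c higher in 4 of 8 tumors). In untreated tumors Ighg2c, Ighg1, Ighg2b and Jchain followed within 786 to 1018 per kilobase. Their order there depends on the length used. Ighg2c has 1326 exonic bases against 2678 for Ighg2b and 2592 for Ighg1, while the secreted transcripts have 1111, 1114 and 1076 bases, and by count the median of Ighg2c (1350) was below those of Ighg2b (2159) and Ighg1 (2148). Ighg3, Ighd and Ighe closed the order in all 4 groups, with medians of 51.5, 8.58 and 1.25 per kilobase in untreated tumors. Ighe was listed at 0 in 7 of the 32 tumors.

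**Figure D1:**
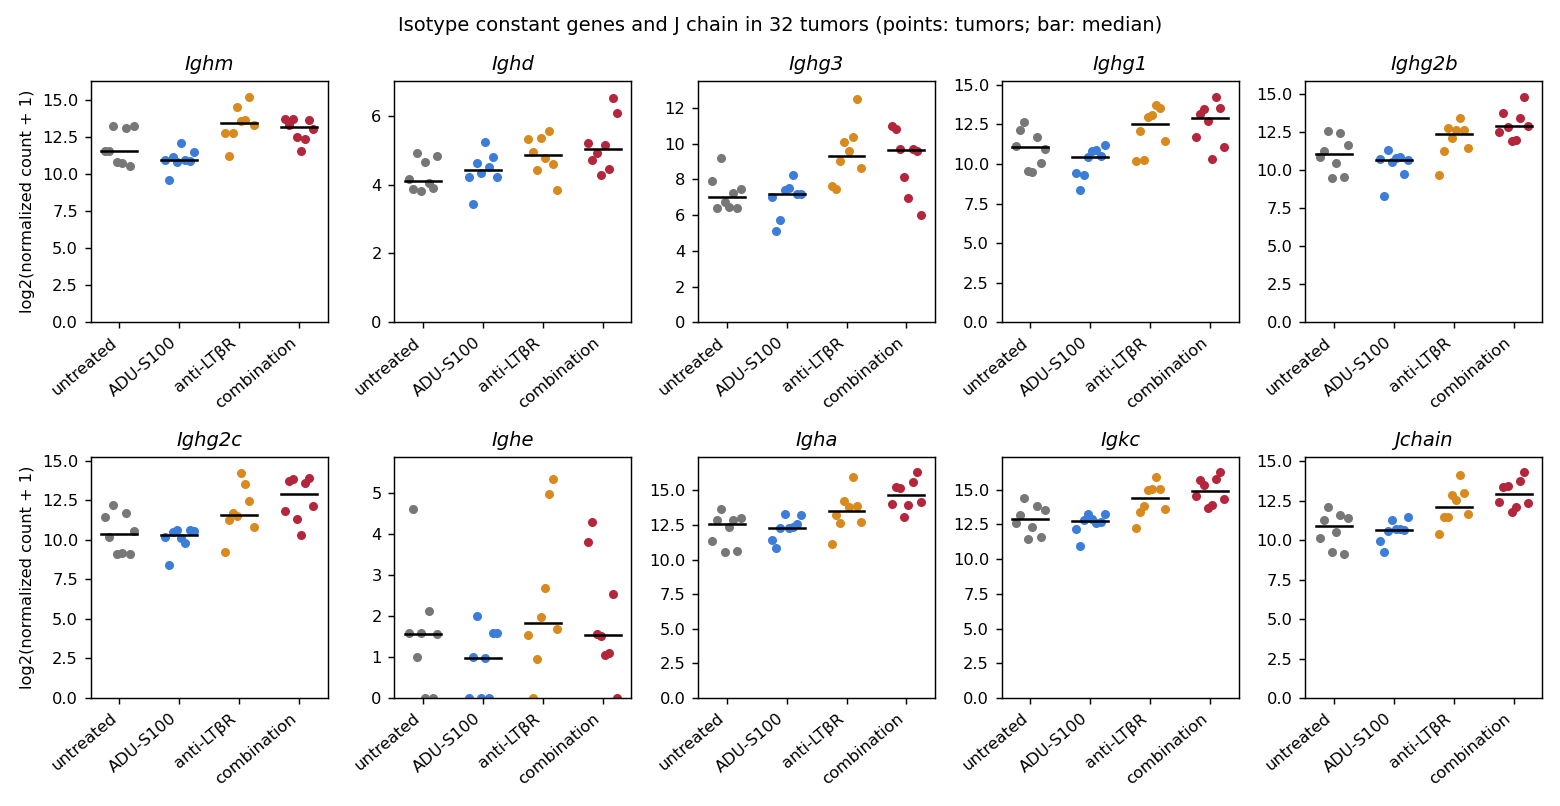
Normalized counts (log axis) of the 10 genes in each tumor, by treatment group. Each point is a tumor and the bar marks the group median. Igha in combination tumors lies between 8845 and 81521, against 1464 to 13170 in untreated tumors.

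In combination tumors, 7 of the 10 genes were higher than in untreated tumors: Igha, Jchain, Ighg2c, Igkc, Ighg2b, Ighg3 and Ighg1. The question of this comparison is what both agents together do to the antibody transcripts of the tumor. Calls required, in limma fitted over all genes, an adjusted p below 0.05 together with a 2-fold change or more. Of the 16909 genes tested, 5.16% were called higher by this rule and 0.952% lower. The median log2 fold change of the 9 genes that passed the filter on low counts was 1.98, against -0.02 over all genes tested. The tumors of both groups overlapped for every gene (4.64% of the genes tested did not overlap and were higher in combination tumors).

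Igha, the IgA heavy chain, rose most in this comparison. Untreated tumors held 1464 to 13170 normalized counts of it around a median of 6328, and combination tumors 8845 to 81521 around a median of 27235. All but 1 combination tumor lay above the highest untreated tumor. The log2 fold change was 2.53 (SE 0.52, adjusted p = 0.0010, limma).

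Jchain and Igkc, which serve more than 1 class, rose by similar amounts. Untreated tumors held 567 to 4497 counts of Jchain (median 1979), combination tumors 3540 to 20350 (median 8180). For Igkc these were 2745 to 21275 (median 7630) and 13335 to 78823 (median 32036). For Jchain 6 combination tumors, and for Igkc 5, were above every untreated tumor. The log2 fold changes were 2.26 (SE 0.46, adjusted p = 0.0010) for Jchain and 2.08 (SE 0.46, adjusted p = 0.0018) for Igkc.

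Of the IgG genes, Ighg2c and Ighg2b, whose products bind activating Fc receptors well, had the larger changes by limma. On recovered reads Ighg3 was above Ighg2b, at a log2 fold change of 2.168 against 1.895 by edgeR and 2.158 against 1.885 by DESeq2. Ighg2c was the highest there too, at 2.189 by edgeR and 2.179 by DESeq2. Ighg2c spanned 550 to 4795 counts without treatment (median 1350) and 1288 to 15750 with both agents (median 8498), a log2 fold change of 2.16 (SE 0.61, adjusted p = 0.0088). Ighg2b spanned 702 to 6198 (median 2159) and 3898 to 28109 (median 7547), a log2 fold change of 1.98 (SE 0.49, adjusted p = 0.0042). For Ighg2c 4 and for Ighg2b 5 of the 8 combination tumors lay above all untreated tumors.

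Ighg1 and Ighg3 passed the test less securely. Ighg1 spanned 731 to 6367 counts in untreated tumors around a median of 2148 and 1276 to 19118 in combination tumors around 7920, with a log2 fold change of 1.56 (SE 0.58, adjusted p = 0.0386). Ighg3 spanned 84.0 to 590.4 (median 129) and 62.5 to 2066 (median 792), with a log2 fold change of 1.75 (SE 0.66, adjusted p = 0.0420). Each had 5 combination tumors above all untreated tumors, and for Ighg3 another combination tumor lay below all of them. With 1 tumor left out at a time, Ighg1 kept its call in 6 of 16 repeats (adjusted p 0.0117 to 0.0779) and lost it without combination tumor 2, 3, 4, 6 or 7 or untreated tumor 1, 4, 5, 7 or 8. Ighg3 kept its call in 5 of 16 (adjusted p 0.00620 to 0.0824) and lost it without combination tumor 1, 2, 3, 6 or 7 or untreated tumor 2, 4, 5, 6, 7 or 8. Ighg3 also lost its call without the filter on low counts (adjusted p = 0.0531, limma) and in libraries above 14000000 reads (adjusted p = 0.0540, limma). Igha, Jchain, Igkc, Ighg2b and Ighg2c kept their calls in all 16 repeats.

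Ighm, Ighd and Ighe, the classes that are unswitched or rare, were not called by limma. Ighm spanned 1513 to 9702 counts in untreated tumors around a median of 2998 and 2985 to 13755 in combination tumors around 9285, with a log2 difference of 1.13 (95% interval 0.16 to 2.10, adjusted p = 0.0564). It passed in 4 of 16 repeats with a tumor left out, those without combination tumor 5 or untreated tumor 3, 6 or 8. Ighm also passed with replicate numbers blocked (adjusted p = 0.0394, limma) and in libraries above 14000000 reads (adjusted p = 0.0132, limma). Ighd, the marker of naive B cells, averaged 40.2 counts in combination tumors against 19.3 in untreated ones and passed the adjusted p (19.6% of genes tested did, upwards) but not the fold threshold (log2 difference 0.89, SE 0.30, adjusted p = 0.0266). It met both without combination tumor 4, and on recovered reads it was called by edgeR (log2 1.06, adjusted p = 0.0148) and DESeq2 (1.06, adjusted p = 0.0075). Ighe averaged 4.25 and 5.30 counts and failed the filter on low counts. Fitted without the filter, its log2 difference was 0.42 (95% interval -0.99 to 1.83), so a difference was not detectable at this depth.

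After the antibody alone, Ighg3 was the only 1 of the 10 genes called higher than in untreated tumors (0.653% of genes tested were called higher). These tumors were set against the same untreated tumors as the combination. The median log2 difference of the 9 genes that passed the filter was 1.39, against 0.00 over all genes. Ighg3 ran from 174 to 5792 in anti-LTβR tumors (median 646), with 4 tumors above all untreated ones, and rose by a log2 fold change of 2.17 (SE 0.61, adjusted p = 0.0268). Its call was lost without anti-LTβR tumor 6 or untreated tumor 4.

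The other genes differed in the same direction without passing. Jchain came nearest (6254 against 2071 counts on average, log2 difference 1.51, adjusted p = 0.0559), followed by Ighm (14204 against 4908, 1.53, adjusted p = 0.0644) and Igkc (25186 against 9255, 1.39, adjusted p = 0.0718). Igha averaged 17392 against 5907, with a log2 difference of 1.30 (95% interval 0.05 to 2.55, adjusted p = 0.136). Without anti-LTβR tumor 6, at 65646 counts where the next highest had 19118, the log2 difference of Igha was 0.93. At an unadjusted p below 0.05, 7 of the 10 genes passed, as did 33.5% of genes tested. The count of calls was 2 by edgeR and 4 by DESeq2 on recovered reads, and 0 when replicate numbers were blocked or libraries above 14000000 reads were used alone. It was 4 without untreated tumor 3 (with Ighm, Igkc and Jchain), 3 without anti-LTβR tumor 1 (with Igkc and Jchain), and 2 with Ighm without anti-LTβR tumor 2 or untreated tumor 6 or 8.

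After ADU-S100 alone no member was called against untreated tumors by limma, and no gene of the table was (0% of genes tested), while edgeR called 1 gene lower and DESeq2 0. No member reached an unadjusted p below 0.05 by limma, against 14.5% of all genes, 1 did by edgeR and 2 did by DESeq2, and neither of these tools called a member. Ighm averaged 2231 counts against 4908 in untreated tumors, a log2 difference of -0.87 (95% interval -1.80 to 0.06, adjusted p = 0.359). Ighg1 averaged 1321 against 2629 (-0.85, 95% interval -1.89 to 0.19). Jchain averaged 1681 against 2071 (-0.11, 95% interval -0.997 to 0.775, and 0.10 in libraries above 14000000 reads). Igha averaged 5676 against 5907, with a log2 difference of 0.13 (95% interval -0.85 to 1.11) that had the opposite sign, between -0.066 and -0.057, under edgeR and DESeq2 on recovered reads.

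Combination and anti-LTβR tumors were then set against each other, which asks what ADU-S100 adds to the antibody. No member was called (1.96% of genes tested were called higher), 1 (Igha) had an unadjusted p below 0.05 by limma, as did 39.2% of genes tested, and edgeR and DESeq2 called 0. Igha averaged 33358 counts against 17392, with a log2 difference of 1.24 (95% interval 0.02 to 2.45, adjusted p = 0.121). It was called when anti-LTβR tumor 6, at 65646 counts, was left out. Ighg2b averaged 10269 against 5201 (1.02, 95% interval -0.03 to 2.06). Ighm was lower on average in the combination, at 9060 against 14204 counts (-0.40, 95% interval -1.40 to 0.60), and so was Ighg3, at 848 against 1283 (-0.43, 95% interval -2.10 to 1.25). The median of Ighg3 was the higher in the combination (792 against 646), and its log2 difference was 0.015 without anti-LTβR tumor 7 and 0.0028 without combination tumor 8. The intervals of Igkc (-0.35 to 1.73) and Jchain (-0.26 to 1.77) also held 0.

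By limma, the combination gave the largest number of calls against ADU-S100 tumors. On recovered reads, edgeR called as many in combination against untreated tumors, and DESeq2 as many in anti-LTβR against ADU-S100 tumors. In the limma fit of combination against ADU-S100 tumors, 8 of 10 genes were called higher (5.46% of genes tested), all but Ighd and Ighe. Ighg2b ran from 309 to 2539 in ADU-S100 tumors and rose by 2.66 on the log2 scale, Igkc from 1951 to 9820 by 2.38 and Jchain from 607 to 2839 by 2.37. For these 3 genes every combination tumor lay above every ADU-S100 tumor, as for 5% of genes tested. Ighg2c (2.49), Ighg1 (2.41), Igha (2.41), Ighg3 (2.06) and Ighm (1.99) also rose. Each of the 8 kept its call in all 16 repeats with a tumor left out. Ighd had a log2 difference of 0.73 (adjusted p = 0.0664).

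Anti-LTβR tumors exceeded ADU-S100 tumors in 5 genes (0.559% of genes tested were called higher). Ighg3 rose by 2.49 (adjusted p = 0.0287), Ighm by 2.40 (adjusted p = 0.0091), Ighg1 by 2.05 (adjusted p = 0.0385), Igkc by 1.69 (adjusted p = 0.0363) and Jchain by 1.62 (adjusted p = 0.0390). Ighm kept its call in all 16 repeats with a tumor left out, Ighg3 in 12, Igkc and Jchain in 7 and Ighg1 in 6. The count of calls fell to 2 without ADU-S100 tumor 1, 4 or 5 or anti-LTβR tumor 5 or 7, and to 1 (Ighm) without ADU-S100 tumor 2 or 3 or anti-LTβR tumor 4 or 6. It was 4 without anti-LTβR tumor 2, 6 without tumor 8 and 7 without tumor 1, with Ighg2b and then Ighg2c added.

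**Figure D2:**
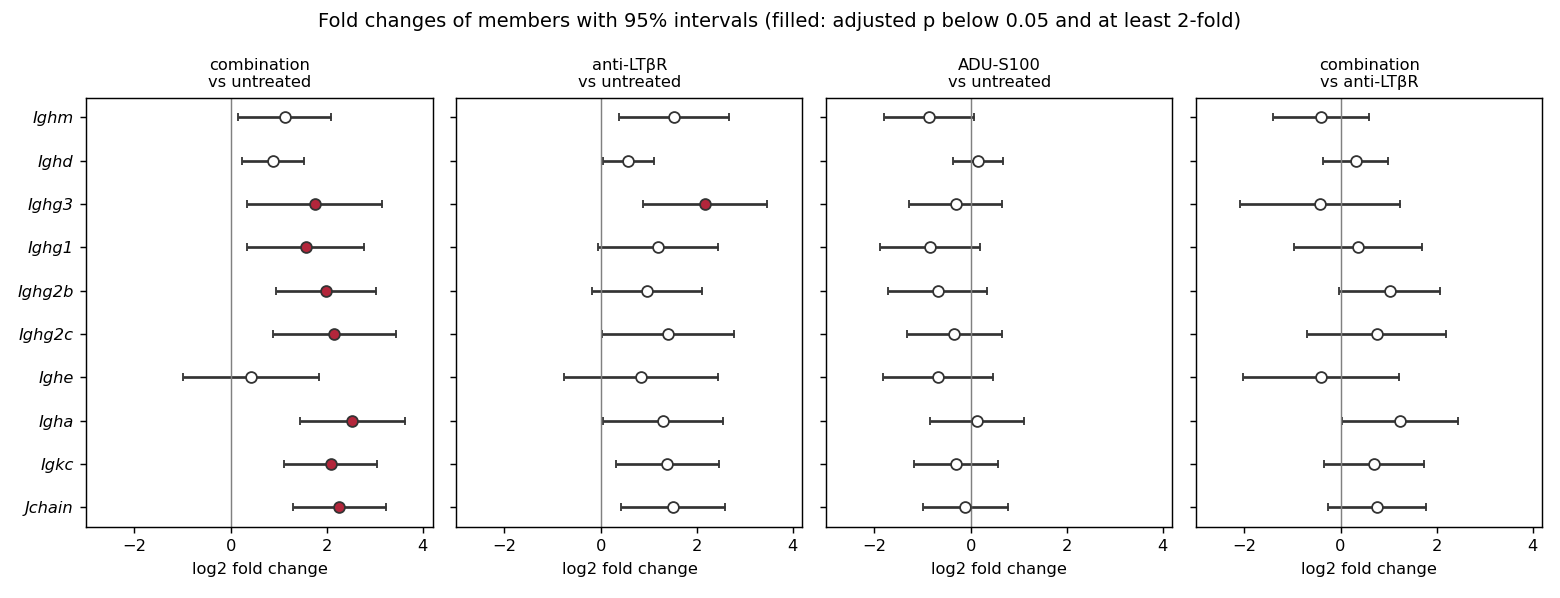
Log2 difference of the 10 genes on the log2(normalized count + 1) scale, with 95% intervals. The panels show combination, anti-LTβR and ADU-S100 tumors against untreated tumors, and combination against anti-LTβR tumors. Filled points mark genes called by limma. The combination lies above untreated tumors for every gene, most for Igha (2.53).

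Whether the effect of the antibody differed with and without ADU-S100 was tested as an interaction over all 32 tumors. No member passed by limma, while 7.33% of genes tested had a positive interaction and 11% a negative one. Ighg2b came nearest, with an interaction of 1.70 on the log2 scale (SE 0.73, limma adjusted p = 0.0988). It was the only member at an unadjusted p below 0.05. EdgeR called 0 members and DESeq2 1.

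The isotype share, the part of the heavy chain transcripts that each class takes, does not depend on how much antibody RNA a tumor holds in all. For each tumor the normalized count of every heavy chain gene was divided by its exonic length and expressed as a percentage of the sum of the 8. IgM, IgG (the 4 IgG genes together) and IgA made up nearly all of it. IgD averaged 0.0879% in combination tumors, 0.109% in anti-LTβR, 0.171% in untreated and 0.230% in ADU-S100 tumors. IgE was at most 0.188% in any tumor.

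In untreated tumors 1 to 8 the IgM share was 24.9, 20.2, 27.3, 37.8, 21.4, 34.9, 31.6 and 44.8%. The IgA share in the same order was 15.3, 34.6, 26.4, 21.8, 47.6, 20.9, 23.3 and 26.9%, and the IgG share 59.7, 44.9, 46.2, 40.1, 30.6, 44.0, 44.9 and 28.2%. Ighm was thus the largest heavy chain gene in 5 of 8 tumors, Igha in 2 and Ighg2c in 1.

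In ADU-S100 tumors 1 to 8 the IgM share was 26.8, 25.2, 22.6, 13.5, 35.6, 19.7, 18.5 and 19.3%. The IgA share was 26.2, 43.0, 34.8, 53.1, 28.9, 37.5, 42.4 and 45.4%, and the IgG share 46.8, 31.5, 42.4, 33.3, 35.2, 42.6, 38.9 and 35.1%. Igha was the largest heavy chain gene in 6 tumors and Ighm in 2.

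Anti-LTβR tumors differed most among themselves. Their IgM share was 62.7, 13.4, 30.9, 46.5, 20.2, 13.6, 51.3 and 46.5%, from mostly IgM to mostly switched. The IgA share was 14.7, 38.1, 20.03, 26.3, 16.2, 48.7, 14.6 and 22.1%, and the IgG share 22.2, 48.4, 49.0, 27.1, 63.5, 37.7, 34.0 and 31.4%. Ighm was largest in 5 tumors, Igha in 2 and Ighg2c in 1.

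Combination tumors mostly had Igha as their leading heavy chain gene. The IgA share was 30.1, 36.7, 34.4, 26.8, 55.8, 44.3, 47.3 and 36.3%. The IgM share was 35.7, 13.3, 18.0, 24.4, 15.1, 6.44, 10.5 and 24.6%, and the IgG share 34.1, 49.9, 47.5, 48.7, 29.0, 49.3, 42.1 and 38.9%. Igha was the largest heavy chain gene in 7 of 8 tumors and Ighm in tumor 1.

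**Figure D3:**
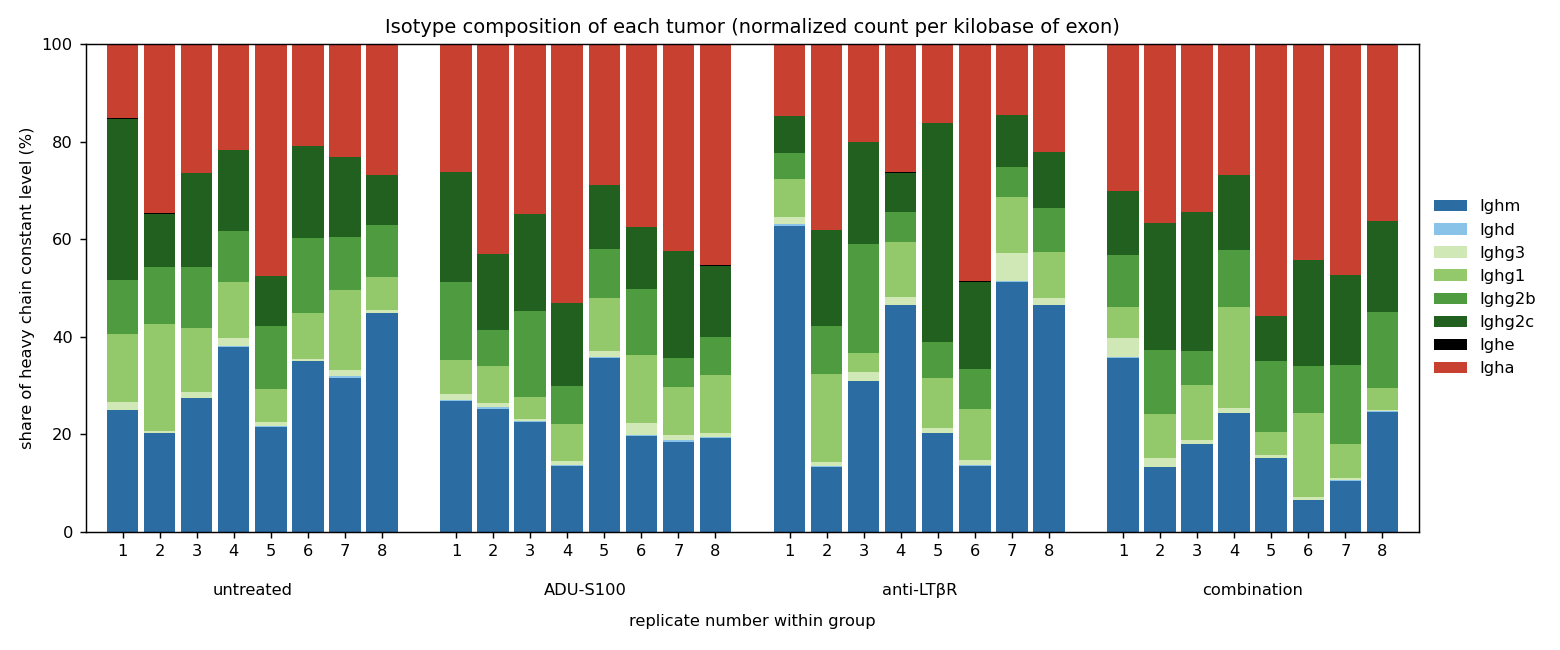
Isotype shares of each tumor as stacked bars, in percent of the length-scaled counts of the 8 heavy chain genes, by group and tumor number. IgM runs from 62.7% in anti-LTβR tumor 1 to 6.44% in combination tumor 6.

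The IgM share averaged 35.6% ± 18.7 (SD, n = 8) in anti-LTβR tumors, 30.4% ± 8.51 in untreated, 22.6% ± 6.68 in ADU-S100 and 18.5% ± 9.38 in combination tumors. Combination tumors lay 11.9 points below untreated tumors (exact permutation p = 0.0213, adjusted p = 0.239) and 17.1 points below anti-LTβR tumors (exact permutation p = 0.0368, adjusted p = 0.249). Of the 8 combination tumors, 5 were below all untreated tumors. These differences did not pass the correction over the 54 share comparisons (9 shares in 6 pairs of groups, two-sided).

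The IgA share averaged 39.0% ± 9.56 (SD, n = 8) in combination tumors, 38.9% ± 8.87 in ADU-S100, 27.1% ± 10.002 in untreated and 25.1% ± 12.3 in anti-LTβR tumors. It was 11.9 points higher in combination than in untreated tumors (exact permutation p = 0.0309) and 13.9 points higher than in anti-LTβR tumors (exact permutation p = 0.0277). ADU-S100 tumors lay 11.8 points above untreated tumors (exact permutation p = 0.0274), and anti-LTβR tumors 13.8 points below ADU-S100 tumors (exact permutation p = 0.0252). The adjusted p was 0.239 for each of these 4. Combination and ADU-S100 tumors differed by 0.0647 points, a difference whose sign turned under most of the alternatives tried.

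The IgG share averaged 42.4% ± 7.84 (SD, n = 8) in combination tumors, 42.3% ± 9.80 in untreated, 39.2% ± 13.6 in anti-LTβR and 38.2% ± 5.32 in ADU-S100 tumors, and no pair of groups reached an unadjusted p of 0.05. Between combination and untreated tumors it differed by 0.126 points (exact permutation p = 0.977), with the opposite sign under another scaling by length or without it. Within IgG, Ighg2c took 16.9 to 18.9% of the heavy chain sum on average in the 4 groups, Ighg2b 9.28 to 12.3%, Ighg1 9.18 to 12.5% and Ighg3 1.02 to 1.83%. Without the length scale, mean counts of Ighg2b were above those of Ighg2c in untreated (2790 against 1913), ADU-S100 (1514 against 1206) and combination tumors (10269 against 8622), and below them in anti-LTβR tumors (5201 against 6006).

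None of the 54 share comparisons passed the Benjamini-Hochberg correction, and 8 had an unadjusted exact permutation p below 0.05. The smallest adjusted p, 0.101, was for the IgD share, lower in combination than in ADU-S100 tumors by 0.142 points (exact permutation p = 0.00186). The smallest p these tests allow is 0.000155. The classes that B cells reach by switching, IgG, IgE and IgA together, averaged 81.4% in combination tumors, 77.1% in ADU-S100, 69.5% in untreated and 64.3% in anti-LTβR tumors.

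The scale by length bears on which class leads. With no division by length, Igha was the largest heavy chain gene in 8 of 8 combination and 8 of 8 ADU-S100 tumors, and in 4 of 8 untreated tumors. Scaled by the length of the secreted transcript alone, a choice made after seeing the data, Igha led in 8 of 8, 8 of 8 and 7 of 8. In anti-LTβR tumors it led in 2 and 3 of 8. The IgM shares of combination tumors then averaged 15.6% and 12.1%, against 26.3% and 20.9% in untreated tumors.

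**Figure D4:**
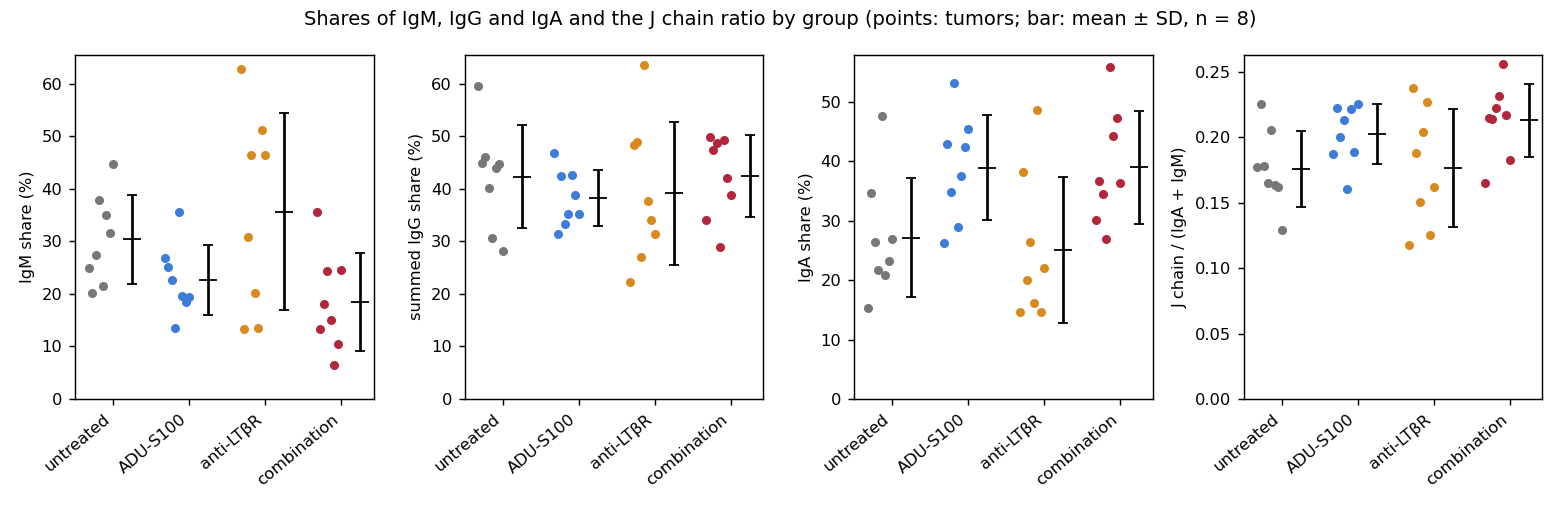
IgM, IgG and IgA shares (percent of the heavy chain sum) of each tumor by group, with the mean and SD beside the points. The IgA mean is 39.0% in combination and 27.1% in untreated tumors, and the groups overlap in every class.

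Light chain and J chain transcripts kept close to the heavy chains. Igkc per kilobase was 1.58 to 2.71 times the heavy chain sum per kilobase over the 32 tumors (median 2.17). The lowest ratios, 1.58 and 1.59, belonged to anti-LTβR tumors 1 and 7, which also had the highest IgM shares. Igkc made up 85.1 to 97.4% of the light chain constant counts. Jchain per kilobase was 0.118 to 0.256 of the sum of Igha and Ighm per kilobase, with means of 0.213 in combination, 0.202 in ADU-S100 and 0.176 in each of the untreated and anti-LTβR groups.

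Across the 32 tumors, with group means removed, the genes of secreted antibody rose and sank together in rank. Spearman's rho was 0.96 between Igha and Jchain, 0.96 between Igkc and Jchain, and 0.91 between Igha and Igkc and between Ighg2c and Igkc. Ighm was less close to Igha (0.59), and Ighd was the least close to the others (from -0.03 with Ighe to 0.38 with Ighm). Values from the same tumor share its library and its depth, so these are descriptions.

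Outside the immunoglobulin genes, the same ranking over 16851 genes put Mzb1, a chaperone of antibody assembly, first for Igkc (0.95), Jchain (0.93), Ighg2c (0.88) and Igha (0.88). Pou2af1, a coactivator of immunoglobulin transcription, came first for Ighm (0.79) and second for Igkc (0.94) and Jchain (0.91). Further down for 1 or more genes were Derl3 and Bhlha15, both of the secretory apparatus of plasma cells, Cd79a and Irf4 of the B lineage, Pik3cg and Slpi. An unnamed lncRNA, ENSMUSG00000120754, reached 0.88 with Igkc. By the deposited coordinates it lies on chromosome 12, and Ighm was the nearest to it of the heavy chain genes described here. Other genes between them were not looked for. Ighd was again apart. Among its nearest genes were Cxcr5 (0.72), the receptor that guides B cells into follicles, Gm6039 (0.69), Pira12 (0.69) and Siglecg (0.67).

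Of the lambda light chain constant genes, 2 of the 3 tested were called higher in combination tumors (5.16% of all genes tested). The list holds 7 genes, of which 4 were in the table and 3 passed the filter. Iglc1 (2113 against 349 counts, log2 2.25) and Iglc2 (337 against 102, 1.97) were called higher in combination than in untreated tumors, and Iglc3 (157 against 90.5, 1.09, adjusted p = 0.0925) was not. After the antibody alone all 3 were called, against 0.653% of genes tested, at log2 fold changes of 1.54, 2.22 and 2.04.

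The enzymes that cut and rejoin DNA during switching gave no call. Of 11 class switch recombination genes that passed the filter, 0 were called in combination against untreated tumors by limma, with a median log2 difference of -0.08. At an adjusted p below 0.05 alone, which 23.6% of genes tested met in this direction, 3 genes of end joining and its control were lower, Xrcc4 (-0.45), Xrcc5 (-0.33) and Rif1 (-0.42). Xrcc6 had a log2 difference of -0.16 (adjusted p = 0.0516).

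Among 7 signals for class switching that passed the filter, Ifng, which favors Ighg2c in mice, was the only 1 called higher (107 against 40.9 counts, log2 1.34, named after its values were seen), against 5.16% of genes tested. At the adjusted p alone 4 of the 7 were higher, against 19.6% of genes tested, among them Cd40 (0.80) and Tnfsf13b, the survival factor BAFF (0.74). Tgfb1, which favors the switch to IgA, averaged 4471 against 5957 counts and passed the adjusted p only (log2 -0.42, adjusted p = 0.0001, limma), which 23.6% of genes tested met in this direction. Cd40lg, the T cell signal for switching, failed the filter at 7.44 against 0.995 counts (log2 2.06 in the fit without it).

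B cell identity genes were called higher in combination than in untreated tumors in 7 of 14 cases, where 5.16% of all genes tested were, with Cd22 (log2 1.45), Blk (1.56) and Cd37 (1.10) among them, and Ebf1 (0.76) under 2-fold. Of 15 plasma cell genes, 6 were called higher, among them Irf4 (1.70), Slamf7 (1.36) and Tent5c (1.22). Sdc1, which epithelial cells also carry, fell by 0.42 at an adjusted p of 0.0006, under 2-fold. Of 6 germinal center genes that passed, 0 were called by limma. S1pr2 had a log2 difference of 0.34 and Fas of 0.85, both past the adjusted p alone, which 19.6% of genes tested met upwards, and Il21 (1.44) and Mef2b (1.58) were measured in the fit without the filter at 5.33 and 10.5 counts. Of 8 antibody receptor and transport genes, 0 were called higher and Fcer1a, the IgE receptor subunit of mast cells and basophils, was called lower (5.33 against 17.8 counts, log2 -1.61), against 0.952% of genes tested. Pigr, which carries polymeric IgA and IgM across epithelium and is named after its values were seen, averaged 0.508 and 0.734 counts.

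Markers of other cells that the tumors could hold also differed between the groups. The summed count of 6 B cell markers was 330 to 1045 in combination tumors (median 567), 253 to 766 after the antibody (median 430), 142 to 335 after ADU-S100 (median 243) and 130 to 399 without treatment (median 213), and 4 of the 6 were called in combination against untreated tumors. The summed count of the 7 plasma cell markers, dominated by Sdc1, was the other way round, at 15262 to 20545 in combination tumors (median 17603) and 19477 to 25982 in untreated ones (median 20564), though 3 of the 6 that passed the filter were called higher. The 7 markers of follicle and lymph node stroma summed to 232 to 767 in untreated tumors and 1023 to 2170 in combination tumors. Of these, Madcam1 was at 0 in some tumors of every group. Glycam1 was at 0 in some tumors of every group but the combination, and Cr2 in some untreated tumors. The 3 fibroblast markers summed to 36473 to 60513 in untreated tumors (median 41348) and 60917 to 219208 in combination tumors (median 129865). The 2 endothelial markers summed to 882 to 1264 and 1464 to 1981. Neither sum overlapped between these groups, nor did the follicle sum. Of single genes tested, 4.64% were higher in combination tumors without overlap. The sums of the 5 T cell markers, 488 to 1266 and 1036 to 1954, and of the 4 macrophage markers, 8877 to 15050.0 and 11923 to 18660.2, overlapped. The 5 tumor epithelium markers summed to 15947 to 28939 in untreated and 6829 to 14654 in combination tumors, also without overlap. Of single genes tested, 6.04% were lower in combination tumors without overlap. Called higher were 2 of 3 fibroblast, 2 of 5 T cell, 0 of 4 macrophage and 0 of 2 endothelial markers, against 5.16% of genes tested. At the adjusted p alone these were 3, 5, 3 and 2, against 19.6%, and 1 epithelium marker was called lower, against 0.952%. The part of these markers in the antibody results was not tested.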

How the data were processed

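Poly(A) RNA of individual tumors was sequenced in stranded libraries. The labels' treatment field gave the groups, and the labels' numbers gave the replicates. The submitters' processing notes name cutadapt 1.9, FastQC, HISAT2, StringTie, STAR, Partek, DESeq2, edgeR and the mm39 build. Which aligner made which table was not settled, and the trimming and counting settings for constant genes are not given in the sources used here. The values the authors deposited for these 32 tumors are a signal, normalized counts in which estimated reads are divided by a size factor of each library. A larger table that the authors deposited holds such a signal for 52 libraries. Its steps gave back whole reads (100% of low values whole, within 0.02 of a step), 12762453 to 15591987 per library for the 32 tumors. At this depth Ighe, with a few reads, has a large counting error. Another table, of the authors' gene set enrichment scores and p-values, was not used, and 0 per-sample columns were left unused.

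Tests used limma 3.58.1 (R 4.3.3, trend, not robust) on log2(normalized count + 1), with edgeR's filterByExpr at a count minimum of 10 and Benjamini-Hochberg adjustment over all genes tested. Fold changes on this scale understate the change of low genes. Each pair used its own 16 tumors and the interaction all 32. Calls needed an adjusted p below 0.05 and a 2-fold change, and for the interaction the adjusted p alone. A gene that failed the filter was fitted without it. Shares were tested by two-sided exact permutation over the 12870 splits of 16 tumors and adjusted over 54 tests. Exonic lengths, positions and sequences came from the GENCODE annotation and genome of GRCm38. Coordinates of the deposited tables served only to place the unnamed lncRNA. Correlations are Spearman's rho over 32 tumors of deviations from group means.

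Genes named are the 10 members, at most 4 per gene list by smallest limma p in combination against untreated tumors, and the 5 nearest genes by correlation for 6 members, with a mean of at least 10 counts. Some of these are not reported here. The members and the lists were chosen with earlier results of these data known. Gene lists were taken whole, and their counts are descriptions with no test.

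Alternatives were edgeR 4.0.16 (quasi-likelihood; RLE, TMM or library totals) and DESeq2 1.42.0 on recovered reads, no filter, 10 counts in every library, pseudocounts of 0.5 and 0.1, a joint fit of the 4 groups, the replicate number as a block, and the adjusted p alone. For shares they were no division by length, a denominator without IgD and IgE, medians, and leaving out the 8 tumors of lowest sum. Chosen after seeing the data were libraries above 14000000 reads, genes in both tables, the secreted transcript's length and each tumor left out. On recovered reads edgeR called 940 genes higher and 154 lower in combination against untreated tumors, and DESeq2 1355 and 327. On normalized counts limma called 873 and 161. Tested on simulated data for that comparison (log2 changes of 1.5), limma found 199 of 200 changed genes and made 6 false calls among 15779 genes. Whether this recovery holds for the 10 members, whose counts varied widely within a group, was not tested.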

Additional observations from a re-analysis of the deposited data

Results flagged for a closer look

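In some groups 1 tumor stood far from the other 7, by Dixon's test at the 95% level for 8 values. This held in 14 of the 76 groups of values tested, where chance gives about 1 in 20, or 3.8. All 14 were the highest value of their group, on a linear scale, and values of a gene and of its share come from the same tumor and are not independent.

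Among untreated tumors, Ighg3 reached 590.4 normalized counts in tumor 3 (next highest 240.5) and Ighe 23.7 in tumor 2 (next 3.33). The Ighe share was also highest in tumor 2, at 0.188% (next 0.0502%). The Ighg2c share was 33.1% in tumor 1 (next 19.4%) and the Ighg2b share 15.5% in tumor 6 (next 12.8%).

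Among anti-LTβR tumors, tumor 6 had the highest Igha, 65646 counts (next 19118), and the highest Jchain, 17952 counts (next 8212). Tumor 7 had the highest Ighg3, at 5792 counts (next 1325) and 5.84% of the heavy chain sum (next 1.72%). The Ighg2b share was 22.4% in tumor 3 (next 9.84%), the Ighg2c share 44.9% in tumor 5 (next 20.99%) and the Ighd share 0.356% in tumor 1 (next 0.167%). In 5 different tumors of this group, then, a different heavy chain gene stood out.

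Among combination tumors, Ighg2b reached 28109 counts in tumor 7 (next 13998), and the Ighg3 share was 4.02% in tumor 1 (next 1.83%).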

How the results depend on the processing

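Combination against untreated tumors called 6 to 8 of the 10 genes under the alternatives that kept every tumor or chose libraries by reads, and combination against ADU-S100 tumors 8 or 9. Anti-LTβR against untreated tumors, with 1 call, moved to 2 under edgeR with RLE, TMM or library totals, to 4 under DESeq2 and in a joint fit, and to 0 in libraries above 14000000 reads. Anti-LTβR against ADU-S100 tumors, with 5, moved to 9 under DESeq2, 3 without a filter, 3 in a joint fit and 2 in libraries above 14000000 reads, and the interaction, with 0, to 1 under DESeq2. The causes were not tested. Leaving out each tumor in turn gave 5 to 8 calls for combination against untreated tumors, 0 to 4 for anti-LTβR against untreated, 0 to 0 for ADU-S100 against untreated, 0 to 1 for combination against anti-LTβR, 8 to 8 for combination against ADU-S100 and 1 to 7 for anti-LTβR against ADU-S100.

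With the replicate number as a block, the counts were 8 for combination against untreated tumors, 0 for anti-LTβR against untreated, 8 for combination against ADU-S100 and 5 for anti-LTβR against ADU-S100, and 0 for the other pair comparisons, the interaction and the shares. Same-numbered tumors correlated at -0.09 to 0.19 on average across the 6 comparisons, and single pairs at -0.55 to 0.63. Whether they share more than a number was not tested.

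No share comparison passed under any alternative, though with the replicate number as a block hardly any could. Signs turned for Igha in ADU-S100 against untreated tumors (0.13, but -0.059 with edgeR's RLE, -0.057 with TMM, -0.066 with library totals and -0.059 with DESeq2), and in libraries above 14000000 reads for Jchain in that comparison (0.10) and the Ighg3 interaction (0.25). In combination against untreated tumors the IgG share difference became -2.32 points with no length division, -2.14 without the 8 tumors of lowest sum and -3.73 with secreted length, and against anti-LTβR tumors -0.431 with secreted length. The IgA share difference of combination against ADU-S100 tumors became -0.214, -3.51 and -0.663 under the same 3, -3.41 with medians and -5.98 in libraries above 14000000 reads. In anti-LTβR against untreated tumors, without the 8 tumors of lowest sum, the IgD and IgA differences became 0.00876 and 0.259. Medians gave 0.00700 for IgD in combination against anti-LTβR tumors and -1.17 for IgG in anti-LTβR against ADU-S100 tumors.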

Other observations

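A separate experiment of 20 libraries is also in the larger table. For 15 libraries the description and the treatment field name different treatments, so these belong to no group here, while 5 name the combination throughout. Reads recovered ran from 8716257 to 18789130 in the 5 and from 16006599 to 18821792 in the 15.

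In the 5 combination libraries the IgA share was 12.7 to 20.96% (median 15.6%), and Igha was the largest heavy chain gene in 0 of 5. Their IgG share was 38.8 to 74.4% (median 65.8%) and their IgM share 9.66 to 48.4% (median 16.1%). In CPM, recovered reads scaled to the library total, Igha ran from 241 to 1901 (median 1432), Igkc from 1453 to 5399 (median 4137) and Jchain from 41.3 to 986 (median 470). In the 8 combination tumors of the main experiment, by the same measure, the IgA share was 26.8 to 55.8%, and Igha ran from 615 to 5573 CPM (median 1897). The experiments were not compared by a test.

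In the 15 libraries without a group the IgM share was 16.76 to 65.5% (median 39.0%), the IgG share 18.7 to 65.7% (median 40.4%) and the IgA share 4.55 to 36.2% (median 15.9%). Igha was the largest heavy chain gene in 1 of the 15. Igha ran from 61.9 to 1410 CPM (median 220) and Ighm from 63.5 to 5637 (median 442).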
